A study of Mus musculus with 12 samples.

Results

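The 3 lung libraries in which Cdkn1a lay under 250 CPM (counts of a gene per 1000000 counts of its library) were compared with the other 9 of the 12 libraries of a mouse study of bleomycin-induced lung fibrosis. They were Control 4 at 56.9 CPM, HBG 3 at 74.9 CPM and Model 2 at 175 CPM, 1 in each treatment group, and the nearest of the others was Control 1 at 500 CPM. The other 9 libraries ran from 500 to 732 CPM, so no library lay near the threshold. The labels give no mark that sets the 3 libraries apart. Because the libraries were chosen by a measured value, everything that separates them from the rest is given below as a description, with no test.

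Poly(A) RNA from whole lung of male C57BL/6 mice, given in the labels as 6 to 8 weeks old, was sequenced in 4 libraries per group. The labels put euthanasia on day 28 in all 3 groups. Control mice had no bleomycin, Model mice had 5 mg/kg of bleomycin once into the trachea, and HBG mice (titled HSBD in the labels) had the same bleomycin plus oral Huashibaidu granules, a herbal medicine, dosed at 7 g/kg. Their schedule differs between labels: dosing started either a week before bleomycin and ran to day 28 or on day 7 after it and ran for 14 days. The animals lived under 12 h of light and 12 h of dark, and the labels used here do not give the hour at which lungs were taken, nor whether each library is 1 animal, so p-values between treatment groups measure only the spread between libraries, which may be technical. Library totals ran from 17979863 to 27150787 counts, and 0.167 CPM or less stood for 3 counts in every library. The lung identity of the 3 libraries was plain: Sftpc, the surfactant protein of type II alveolar cells, stood at 13028, 13809 and 12867 CPM, inside the range of the other 9 (7723 to 18941 CPM).

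Cdkn1a encodes p21, an inhibitor of cyclin-dependent kinases that halts the cell cycle. It is the classical target of p53, a transcription factor that is held low by the ubiquitin ligase Mdm2 and released by DNA damage and other stress, and Mdm2 is itself a p53 target, which closes a feedback loop. Through p21 and the DREAM repressor complex, p53 also lowers genes of mitosis, whose promoters carry CCAAT boxes and the cell cycle element TTTGAA. The circadian clock is a second loop, in which Arntl (BMAL1) and Clock switch on the Per and Cry repressors through E-boxes, and Cdkn1a has been described as under clock as well as p53 control.

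Promoters of genes from these 3 programmes are shown because the genes were among those called in the 3 libraries. They are the 250 bases before a start site in RefSeq, build GRCm38.p6. Where a gene had several starts, the one with the most matches was printed (for mitosis genes, matches to the CCAAT box). The printed windows were thus selected for their matches. The p53 target promoters lie at chr17:29090729-29090978 on the plus strand (Cdkn1a, the upstream 1 of 2 starts that lie 2790 bases apart), chr11:40755287-40755536 on the minus strand (Ccng1) and chr10:117710759-117711008 on the minus strand (Mdm2), and capitals mark matches to the p53 decamer, the unit of which a p53 binding site holds a pair.
Cdkn1a: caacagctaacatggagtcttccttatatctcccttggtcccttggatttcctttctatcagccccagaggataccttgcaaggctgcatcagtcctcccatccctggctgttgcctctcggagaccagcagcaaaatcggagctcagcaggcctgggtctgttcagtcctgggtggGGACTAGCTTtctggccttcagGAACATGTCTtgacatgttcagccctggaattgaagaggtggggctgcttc
Ccng1: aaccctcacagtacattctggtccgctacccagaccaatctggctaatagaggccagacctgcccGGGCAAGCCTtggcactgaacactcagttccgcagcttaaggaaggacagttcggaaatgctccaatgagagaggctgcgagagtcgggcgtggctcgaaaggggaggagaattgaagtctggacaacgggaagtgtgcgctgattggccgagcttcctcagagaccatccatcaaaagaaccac
Mdm2: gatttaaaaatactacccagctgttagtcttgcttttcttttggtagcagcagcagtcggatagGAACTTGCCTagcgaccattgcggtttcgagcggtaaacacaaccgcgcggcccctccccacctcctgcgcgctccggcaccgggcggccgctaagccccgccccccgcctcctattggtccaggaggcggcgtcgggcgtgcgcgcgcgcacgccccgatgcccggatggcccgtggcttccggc
The clock repressor promoters lie at chr3:95882229-95882478 on the minus strand (Ciart) and chr10:85185055-85185304 on the minus strand (Cry1), and capitals mark the E-box CACGTG.
Ciart: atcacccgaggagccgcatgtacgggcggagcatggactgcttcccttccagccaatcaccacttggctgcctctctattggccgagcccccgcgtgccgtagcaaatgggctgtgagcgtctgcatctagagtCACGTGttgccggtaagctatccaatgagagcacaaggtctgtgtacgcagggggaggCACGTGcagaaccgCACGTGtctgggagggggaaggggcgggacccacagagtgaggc
Cry1: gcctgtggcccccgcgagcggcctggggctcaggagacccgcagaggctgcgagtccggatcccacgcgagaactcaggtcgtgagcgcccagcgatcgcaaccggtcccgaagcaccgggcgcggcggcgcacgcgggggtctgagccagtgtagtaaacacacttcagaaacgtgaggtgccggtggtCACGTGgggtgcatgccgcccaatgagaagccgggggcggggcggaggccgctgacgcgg
The mitosis promoters lie at chr7:135716380-135716629 on the minus strand (Mki67) and chr10:69352913-69353162 on the minus strand (Cdk1), and capitals mark the CCAAT box (CCAAT, or ATTGG on the other strand) and the cell cycle element (TTTGAA, or TTCAAA on the other strand).
Mki67: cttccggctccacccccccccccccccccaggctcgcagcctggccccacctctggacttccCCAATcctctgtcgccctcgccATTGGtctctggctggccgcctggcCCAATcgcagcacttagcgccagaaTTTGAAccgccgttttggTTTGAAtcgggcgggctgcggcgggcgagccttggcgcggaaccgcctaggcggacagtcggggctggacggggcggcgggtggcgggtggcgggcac
Cdk1: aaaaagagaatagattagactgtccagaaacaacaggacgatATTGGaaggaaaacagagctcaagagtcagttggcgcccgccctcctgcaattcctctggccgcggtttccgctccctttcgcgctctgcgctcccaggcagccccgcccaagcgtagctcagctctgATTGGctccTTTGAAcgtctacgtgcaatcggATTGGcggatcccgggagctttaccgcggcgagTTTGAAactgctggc

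In windows from 250 bases before to 50 after the start, both strands read, the p53 decamer stood in the promoters of 7 of the 15 matched genes among Cdkn1a and the 20 listed p53 targets (Aen, Bax, Ccng1, Cdkn1a, Ei24, Mdm2 and Polk), against 8.36% of all 32851 promoters. A pair of decamers with at most 13 bases between them stood in Cdkn1a only, and in 0.0731% of all promoters. Only exact matches to the decamer pattern were counted or marked. In Cdkn1a the stretch tgacatgttc, directly after GAACATGTCT, misses that pattern at its first base and stayed unmarked. The pair counted in Cdkn1a is therefore the spaced one, and near matches in other promoters were missed in the same way. CACGTG was found for 4 of 8 matched clock repressors (Bhlhe41, Ciart, Cry1 and Per1) and in 7.15% of all promoters. Of 17 matched mitosis genes, 15 held a CCAAT box (37.4% of all promoters) and 12 held TTTGAA (17.9%). The motifs were not particular to 1 list: a CCAAT box also stood in 7 of 8 clock repressors and 8 of 15 p53 targets, CACGTG in 6 of 15 p53 targets and TTTGAA in 4 of 15. Counts are of genes, some with several starts, whereas the shares are of promoters (the p53 decamer stood in 8 of the 21 promoters of its list). These matches describe letters in a window and are no evidence of binding.

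Across 18713 genes fitted with treatment group as a covariate, 1797 (9.6%) were called higher and 1321 (7.06%) lower in the 3 libraries, where called means an adjusted p under 0.05 in edgeR and serves here only as a mark of separation. All 3 libraries lay above all 9 others for 923 genes (4.93%) and below them for 823 (4.4%), and the median difference over all genes was -0.04 on the log2 scale. These percentages are the background against which the gene lists stand, and nothing is read from the counts alone. Leaving out Control 4 raised the calls to 2389 higher and 1924 lower, while leaving out HBG 3 lowered them to 358 and 147 and leaving out Model 2 to 508 and 202.

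**Figure D1:**
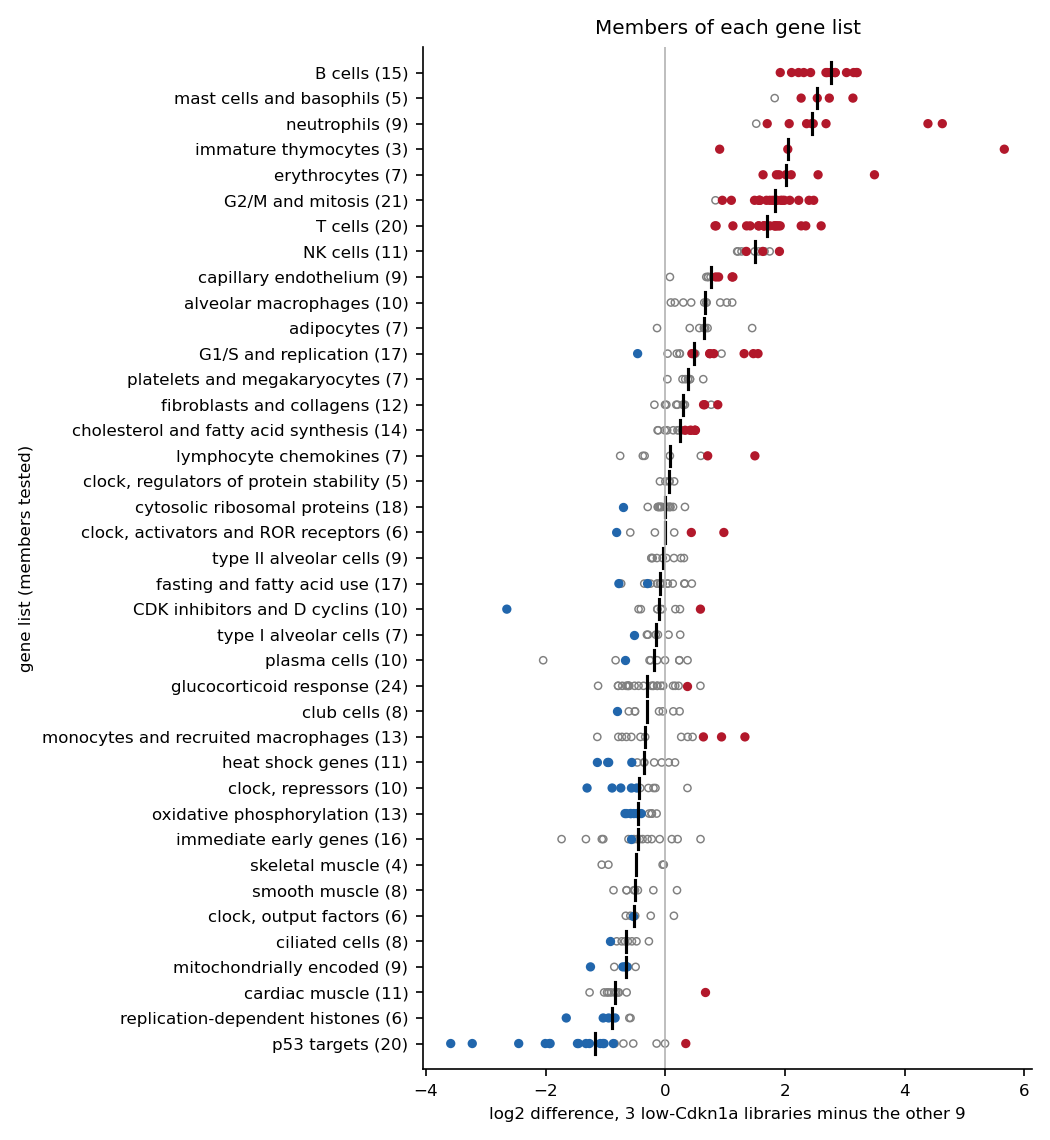
Each point is 1 gene of a list grouped by function, placed at its log2 difference (3 low-Cdkn1a libraries minus the other 9, treatment group in the fit). The lists were chosen with earlier results of these data known. Filled points were called (red higher, blue lower), open points were not, and the black bar is the list's median, from -1.18 for the p53 targets to 2.76 for the B cell genes.

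Among p53 targets, Cdkn1a was not alone. Of 20 listed targets besides Cdkn1a, 14 were called lower and 1 higher, with a median log2 difference of -1.18, and the same 14 lay below all 9 others in all 3 libraries. Their summed level was 976 CPM in Control 4, 1293 CPM in Model 2 and 1090 CPM in HBG 3, against 2204 to 3770 CPM in the others. Cdkn1a itself, the gene of the rule, differed by -2.65 ± 0.24 (log2, SE), with levels of 55.3, 174 and 73.5 CPM after scaling between libraries by the trimmed mean of M-values (TMM), which is the scale of every level below.

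Gdf15, a stress cytokine of the TGF-beta family, read 0.591 CPM in Control 4, 4.28 in Model 2 and 1.94 in HBG 3, and 15.6, 26 and 63.1 CPM at the lowest, median and highest of the other 9. Its log2 difference was -3.59 ± 0.56 (SE), the lowest of the list. No low library reached the others. Eda2r, the ectodysplasin A2 receptor, read 2.27, 5.04 and 6.48 CPM against 32.5, 41.3 and 50.6 CPM (log2 -3.23 ± 0.27). Phlda3, an inhibitor of AKT signalling, read 33.6, 27.9 and 23.8 CPM against 107, 150 and 210 CPM (log2 -2.45 ± 0.13). For both genes the 3 libraries lay together, well under the others.

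Ccng1, cyclin G1, read 109, 167 and 122 CPM against 417, 495 and 687 CPM (log2 -2.01 ± 0.15). Bax, which permeabilises mitochondria in apoptosis, read 32.2, 34.6 and 30.0 CPM against 99.8, 125 and 143 CPM (log2 -1.92 ± 0.11). Aen, an apoptosis-enhancing nuclease, read 27.7, 36.0 and 27.7 CPM against 98.1, 117 and 132 CPM. The apoptosis activator Bbc3 (PUMA) differed by -1.45 ± 0.18, the death receptor Tnfrsf10b by -1.33 ± 0.17 and the stress sensor Sesn2 by -1.47 ± 0.22, all without overlap.

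Mdm2, the ligase that degrades p53, was the most even of these genes. It read 82.3 CPM in Control 4, 82.8 in Model 2 and 80.7 in HBG 3, against 155, 161 and 199 CPM in the others (log2 -1.04 ± 0.09), so the level in the others was 2.06-fold that of the 3. Trp53, which encodes p53 itself and, like list members beyond the 3 farthest of a list, was named after its values were seen, was higher at 30.4, 49.2 and 49.6 CPM against 23.9, 29.5 and 37.7 CPM (log2 0.49 ± 0.12). Its Control 4 value lay inside the range of the others. The listed targets that did not follow were Rrm2b, a ribonucleotide reductase subunit called higher (log2 0.34 ± 0.09), and Fas, Plk2, Btg2, Perp and Pmaip1, which were not called. Fas, the death receptor, had 37.8, 53.1 and 43.3 CPM against 38.1 to 48.9 CPM.

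Between 14 and 15 of the 20 targets were called lower whichever of the 12 libraries was left out, also after a correction for GC content and gene length (14). For Cdkn1a itself the rule fixed the direction, and its size within a treatment group was -3.35 in Control, -1.93 in Model and -2.82 in HBG (log2, with 0.25 CPM added to each level).

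**Figure D2:**
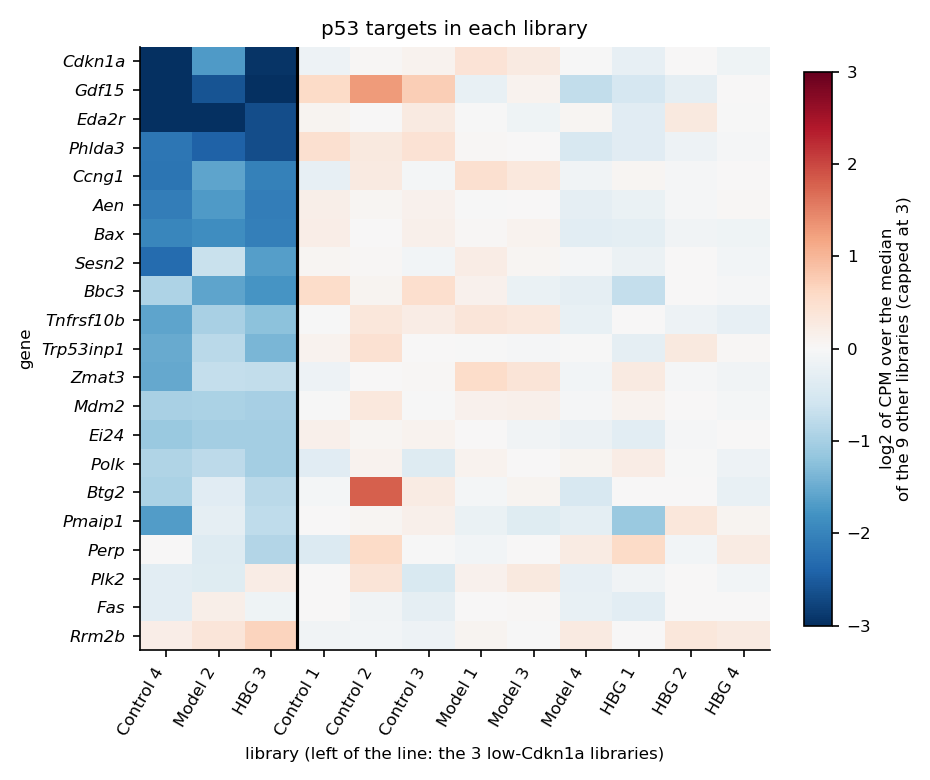
Colour gives the log2 of a gene's CPM over its median in the 9 other libraries, capped at 3 either way, for Cdkn1a and the 20 p53 targets (rows) in 12 libraries (columns). Left of the line, Gdf15, Eda2r and Phlda3 are darkest in the 3 low-Cdkn1a libraries, while Perp, Plk2, Fas and Rrm2b at the bottom are pale or mixed.

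Mitosis genes were high in the same libraries. Of 21 listed genes of G2 and mitosis, 20 were called higher and 20 lay above all 9 others, with a median log2 difference of 1.83. Summed, they read 134 CPM in Control 4, 173 in Model 2 and 285 in HBG 3 against 33.3 to 75.1 CPM. Mki67, the proliferation marker Ki-67, read 29.3, 41.5 and 67.1 CPM against 3.80, 8.32 and 13.2 CPM (log2 2.48 ± 0.17). The kinetochore gene Cenpf (log2 2.40 ± 0.26) and the chromosomal passenger kinase Aurkb (2.23 ± 0.25) also stood apart. Aurka, the spindle pole kinase, was not called at 2.46, 2.37 and 5.86 CPM against 1.13 to 2.65 CPM. Without HBG 3, which had the highest values, 15 of the 21 were called.

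Genes of the G1 to S step differed less. Of 17, 8 were called higher and 1 lower, with a median of 0.48. Rrm2, the ribonucleotide reductase subunit of dividing cells, read 7.19, 7.11 and 14.3 CPM against 2.40, 3.08 and 4.05 CPM (log2 1.55 ± 0.18), and the replication helicase subunit Mcm5 read 9.31, 16.6 and 22.9 CPM against 4.05, 5.07 and 8.94 CPM (1.47 ± 0.19). Pcna, the DNA polymerase clamp, was not called (log2 0.19 ± 0.10). The call count of this list was 4 higher without Model 2 and also without HBG 3.

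Among the 9 listed CDK inhibitors and D cyclins besides Cdkn1a, 1 was called higher and 0 lower. Cdkn2c (p18) read 19.6, 17.3 and 23.9 CPM against 10.6, 12.6 and 16.5 CPM (log2 0.59 ± 0.15), and its call was lost without Model 2 and without HBG 3. Cdkn1b (p27), Cdkn1c (p57), Cdkn2a, Cdkn2b, Cdkn2d and the D cyclins Ccnd1, Ccnd2 and Ccnd3 were not called, and Ccnd1 read 313, 309 and 296 CPM against 304 to 534 CPM. Of 6 replication-dependent histone genes tested, 4 were called lower (1 without HBG 3 and 2 without Model 2; median -0.89), H4c8 reading 2.02, 0.907 and 0.804 CPM against 2.13 to 6.26 CPM. Most transcripts of these histone genes lack the poly(A) tail by which the libraries were made.

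Lymphocyte genes were high, B cell genes most. All 15 listed B cell genes were called higher, 13 above all 9 others, with a median log2 difference of 2.76. Their sum was 404 CPM in Control 4, 802 in Model 2 and 998 in HBG 3 against 71.8 to 296 CPM. Ighd, the immunoglobulin D heavy chain of naive B cells, read 56.7, 82.6 and 132 CPM against 2.30, 9.87 and 17.9 CPM (log2 3.15 ± 0.36). Cxcr5, the follicle homing receptor, read 11.2, 21.9 and 32.7 CPM against 0.949, 2.25 and 4.75 CPM (log2 3.19 ± 0.32), and the adaptor Bank1 differed by 3.21 ± 0.32. In bulk tissue, more cells of a type and more RNA per cell cannot be told apart.

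All 20 T cell genes were called higher, 10 of them above all 9 others, with a median of 1.70. Their sum was 208 CPM in Control 4, 496 in Model 2 and 522 in HBG 3 against 67.2 to 185 CPM. Cd8b1, a chain of the CD8 coreceptor, read 4.19, 11.3 and 10.8 CPM against 0.749, 1.55 and 3.30 CPM (log2 2.35 ± 0.38). Control 4 was the lowest of the 3 and still above all the others. The number of T cell genes called fell to 8 without Model 2 and to 10 without HBG 3, whereas the B cell count was 14 without either.

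Other lymphocyte lists split. Of 11 NK cell genes, 3 were called higher (median 1.49), against 11 in DESeq2, 8 in limma-voom, 10 without Control 4, and 0 without Model 2 or without HBG 3. Of 10 plasma cell genes, 1 was called, lower (Sdc1, syndecan 1, log2 -0.67). Ighg1, the IgG1 heavy chain, read 1.33, 1.56 and 3.64 CPM against 0.3 to 218 CPM, and HBG 1 had the 218. Of 7 immature thymocyte genes, only 3 had counts enough to be tested, and all 3 were called higher (median 2.05). Rag1, the recombinase of developing lymphocytes, read 0.197, 0.958 and 0.662 CPM and was at 0 in 8 of the other libraries. Its Control 4 value was near the floor, as 0.152 CPM stood for 3 counts in that library. Of 7 lymphocyte chemokines, 2 were called higher, Cxcl12 (log2 0.71 ± 0.17) and Ccl5, while Ccl19, Ccl21a and Cxcl13, which mark lymphoid tissue stroma, were not.

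Markers of some blood and vessel cells were high beside the lymphocyte genes, and others were not. Of 9 tested neutrophil genes, 8 were called higher (2 without Model 2, 2 without HBG 3), and their sum was 145 to 651 CPM in the 3 libraries and 34.1 to 187 CPM in the others. The granule genes Ngp (9.02, 29.3 and 42.2 CPM against 0.186 to 2.94 CPM) and Camp (3.20, 5.85 and 8.70 CPM against 0 to 0.486 CPM), made by immature neutrophils, did not overlap. All 7 erythrocyte genes were called higher (0 without Model 2 and 0 without HBG 3), with a sum of 4402 to 5672 CPM against 269 to 4395 CPM, the latter in Control 1. Capillary endothelium had 4 of 9 called higher (0 without Model 2 and 0 without HBG 3), and its sum was 2800 to 4130 CPM against 944 to 2680 CPM. Of 7 platelet and megakaryocyte genes none was called (median 0.38), and of 13 genes of monocytes and recruited macrophages 3 were called higher (0 without HBG 3) with a median of -0.34. No marker list was at 0 in full, and the part of these cells in the p53, mitosis and clock differences was not tested.

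Lung epithelium differed by cell type. Of 9 type II alveolar genes none was called, of 7 type I genes 1 was called lower (Aqp5, aquaporin 5), and of 8 club cell genes 1 was called lower (Aldh1a1). Club cell genes summed to 54090 CPM in Control 4, 22997 in Model 2 and 22687 in HBG 3 against 30626 to 72780 CPM. Ciliated cell genes summed to 1278, 799 and 560 CPM against 1004 to 1570 CPM, so for both lists Model 2 and HBG 3 lay under all the others and Control 4 did not. Of 8 ciliated genes, 1 was called lower (median -0.65), against 5 in DESeq2, 4 in limma-voom, 6 without Control 4 and 0 without HBG 3. Cardiac muscle genes, which mouse pulmonary veins also express, ran from 362 to 2342 CPM in the 3 libraries and from 364 to 5521 CPM in the others.

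**Figure D3:**
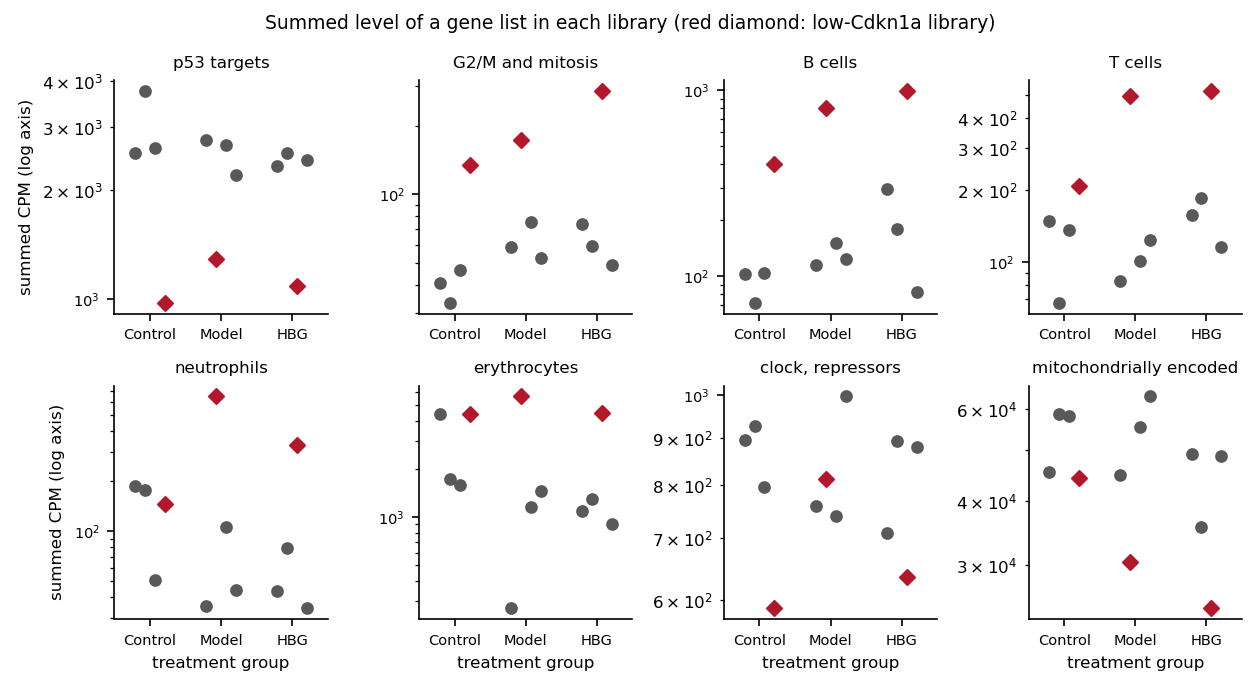
Each panel gives the summed CPM (log axis) of 1 gene list in every library, by treatment group, with red diamonds for the 3 low-Cdkn1a libraries and grey circles for the others. The diamonds lie under all circles for p53 targets and over all circles for mitosis, B cell and T cell genes, over all circles by a narrow margin for erythrocyte genes, and mix with the circles for neutrophils, clock repressors and mitochondrially encoded genes.

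In the clock, the difference was a change of balance in a few genes. Of 10 repressors, 5 were called lower and none higher (median -0.45); of 6 genes of the activating arm, 2 were called higher and 1 lower; of 6 output factors, 1 was called lower (median -0.52); and none of 5 regulators of clock protein stability was called. Per2, a core repressor, read 41.2 CPM in Control 4, 51.2 in Model 2 and 31.7 in HBG 3 against 91.2, 101 and 121 CPM (log2 -1.31 ± 0.13). Per3 read 59.4, 53.5 and 44.0 CPM against 82.9, 96.0 and 117 CPM (-0.89 ± 0.13), and Cry1 read 14.7, 16.4 and 16.7 CPM against 21.6, 27.5 and 30.9 CPM (-0.74 ± 0.11). None of these 3 repressors overlapped between the groups of libraries.

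On the activator side, Arntl read 17.0, 14.8 and 17.0 CPM against 5.98, 7.37 and 12.5 CPM (log2 0.98 ± 0.19) and Clock read 78.2, 91.5 and 91.5 CPM against 61.1, 62.2 and 71.5 CPM (0.44 ± 0.07). Both lay above all 9 others. Among outputs, Tef read 244, 228 and 207 CPM against 292, 318 and 398 CPM (-0.54 ± 0.12), while Dbp, another PAR bZIP factor, read 65.8, 44.3 and 49.9 CPM against 43.5 to 118 CPM and was not called.

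Not every clock repressor took part. Per1 spread across the 3 libraries, from 47.9 CPM in Control 4 to 211 in Model 2 and 112 in HBG 3, and the others ran from 88.5 to 207 CPM. Nr1d1 (REV-ERB alpha, which represses Arntl) read 148, 146 and 158 CPM against 60, 116 and 244 CPM and was not called (log2 0.37 ± 0.35). Ciart, printed above with 3 E-boxes, was called lower but overlapped, at 11.4, 12.4 and 7.09 CPM against 10.5, 15.5 and 17.7 CPM (-0.57 ± 0.17). Bhlhe41 was called lower (-0.48 ± 0.14) and lay below all 9 others. The number of repressors called was 3 without Control 2, Model 2, HBG 2, HBG 3 or HBG 4, each left out alone. Without Model 2, and also without HBG 3, only 1 gene of the activating arm was called higher and none lower. No output factor was called in those 2 fits. The lower call of the activating arm was also lost without Control 2, Control 3, Model 1 or HBG 2. Sampling hour is not in the labels used here, and its part was not tested.

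**Figure D4:**
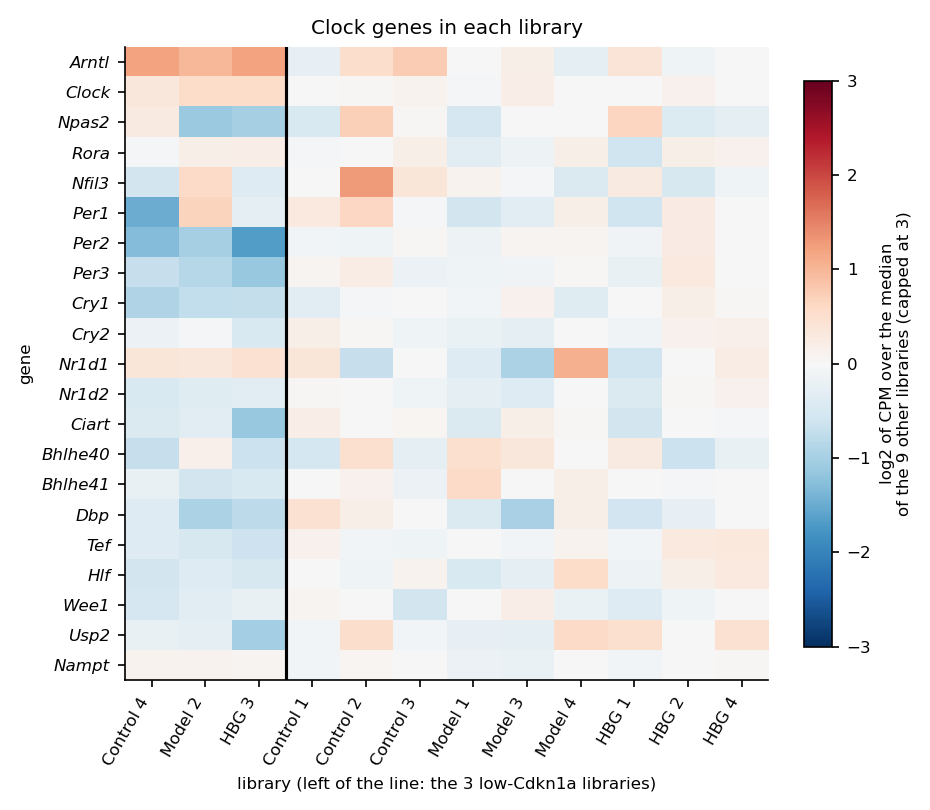
Colour gives the log2 of a gene's CPM over its median in the 9 other libraries, capped at 3, for 21 clock activators, repressors and outputs (rows) in 12 libraries (columns). Left of the line, Arntl and Clock are red and Per2, Per3 and Cry1 blue in all 3 low-Cdkn1a libraries, while Per1 and Nfil3 differ among them.

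Few genes of the hormone and feeding programmes were called. Of 24 glucocorticoid response genes, 1 was called, the receptor gene Nr3c1 itself, at 182, 210 and 234 CPM against 130, 160 and 188 CPM (log2 0.37 ± 0.10), and the list's median was -0.30. That median was -0.70 without Model 2, with 2 genes called lower, and -0.02 without HBG 3. The Nr3c1 call was also lost without Model 3 and without HBG 4. Tsc22d3 (GILZ), an anti-inflammatory target, read 201, 426 and 303 CPM against 218 to 499 CPM, and the cochaperone Fkbp5 read 22.5, 36.8 and 24.2 CPM against 21.5 to 60.4 CPM, so both overlapped. Of 17 fasting and fatty acid use genes, 2 were called, both lower, among them the thioesterase Acot1 (log2 -0.78 ± 0.14). No gene of that list was called without Model 2, without HBG 3 or with treatment group left out of the fit. Of 14 cholesterol and fatty acid synthesis genes, 6 were called higher (median 0.25), but none separated: the synthase Fasn read 265, 521 and 429 CPM against 194 to 409 CPM, and no gene was called without Model 2 or without HBG 3.

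RNA measures moved too. Of 9 mitochondrially encoded genes, 5 were called lower (median -0.65), with sums of 44312 CPM in Control 4, 30395 in Model 2 and 24744 in HBG 3 against 35585 to 63637 CPM. Of 13 nuclear oxidative phosphorylation genes, 8 were called lower (median -0.45), and of 11 heat shock genes 4 (1 without Model 2 and 1 without HBG 3). Both of the first 2 lists had no call without Model 2 or without HBG 3, and 3 calls each after the GC and length correction. Genes called higher had a median length of 3645 bases and those called lower 1932 bases, against 2651 bases over all genes tested. The part of RNA quality in these differences was not tested. Cytosolic ribosomal protein genes had a median difference of 0.00, with 1 of 18 called.

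Outside the lists, some of the genes that separated most were of the same immune kinds. Fcmr, the IgM Fc receptor, read 12.1, 27.8 and 47.6 CPM against 0.749 to 4.80 CPM (log2 3.42 ± 0.42). Xcr1, which marks cross-presenting dendritic cells, read 4.04, 5.49 and 7.47 CPM against 0.155 to 1.72 CPM, and Siglech, of plasmacytoid dendritic cells, read 1.82, 2.62 and 5.58 CPM against 0.160 to 0.544 CPM. The calcium channel gene Cacna1i, the lymphocyte receptor Gpr174 and the B cell gene Fcrla differed by 3.30 ± 0.39, 3.08 ± 0.42 and 3.03 ± 0.33.

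At the low end, Celf5, an RNA-binding protein gene, read 0.345, 0.958 and 0.567 CPM against 7.66, 9.82 and 14.0 CPM (log2 -3.96 ± 0.30), and Ces2e, a carboxylesterase, read 2.81, 4.79 and 5.86 CPM against 22.9, 53.2 and 66.4 CPM (-3.40 ± 0.35). Gtse1, a cell cycle protein that binds p53, read 1.58, 2.92 and 2.65 CPM against 14.3, 16.8 and 21.5 CPM (-2.89 ± 0.22), against the direction of the mitosis list. The synapsin gene Syn3 read 6.41, 3.93 and 1.51 CPM against 11.9 to 60.2 CPM. Liver-type genes (Alb, Fgb, Serpina3k, Kng2) were also among the 10 lowest, but their levels in the 3 libraries were at most 1.48 CPM, and Alb in the others ran from 1.35 to 41.4 CPM.

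For the labelled treatment groups, counts of called genes were set side by side with and without account of the 3 libraries. Such a comparison of counts is no test of their effect. With the low-Cdkn1a term in the edgeR model, 138 genes (0.737%) differed between Model and Control at an adjusted p under 0.05, 30 higher and 108 lower, against 62 (0.348%) with group alone, all of which were among the 138. HBG against Control gave 71 genes (0.379%) with the term and 27 (0.151%) without it, all 27 in both. The fit with the term tested 18713 genes and that with group alone 17827. Leaving the 3 libraries out gave 46 and 22. With 9 libraries in place of 12, lost power and the part of those libraries cannot be told apart there. The counts depended on the method: with the term, Model against Control gave 856 calls in DESeq2, 912 in limma-voom and 45 (without Model 2) to 257 (without Model 4) with 1 library left out, and HBG against Control gave 526, 141 and 44 (without Control 3) to 76 (without Model 4). For HBG against Model 0 genes (0.0%) passed in edgeR with or without the term (791 and 433 genes at an unadjusted p under 0.05; limma-voom with the term 0, DESeq2 15). As the term was set from the libraries' own values, the larger counts are not independent of these data.

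**Figure D5:**
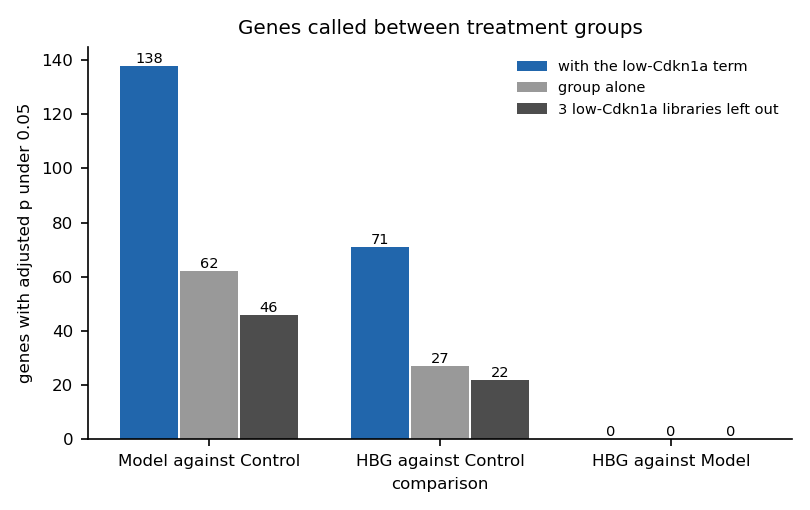
Bars give the number of genes with an edgeR adjusted p under 0.05 in each comparison of treatment groups, with the low-Cdkn1a term (blue), with group alone (light grey) and with the 3 libraries left out (dark grey). Model against Control falls from 138 to 62 and 46, HBG against Control from 71 to 27 and 22, and HBG against Model is 0 throughout.

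No p53 target, clock, mitosis, T cell or B cell gene passed between any 2 groups with the term. As 0.737% and 0.379% of all genes passed against Control, a count of 0 in these lists is near the background and says nothing particular about them. Cdkn1a with group alone had an edgeR adjusted p of 0.906 for Model against Control and 0.981 for HBG against Control. The 2 comparisons share the Control libraries, so their values are given side by side only. Listed genes that did pass were of other kinds. Jund, an AP-1 subunit, read 220 to 394 CPM in Control, 58.7 to 83.3 CPM in Model and 53 to 99.8 CPM in HBG, so that every Control library lay above the rest. It was lower in Model than in Control by -2.04 ± 0.14 (log2, SE; edgeR adjusted p = 4.2e-05) and in HBG than in Control by -2.0 ± 0.14 (adjusted p = 5.1e-05). Cox5b, a cytochrome oxidase subunit, was lower by -1.33 ± 0.15 (edgeR adjusted p = 0.0017) and -0.99 ± 0.15 (0.014), and the small heat shock gene Hspb1 by -1.34 ± 0.22 (0.021) and -1.52 ± 0.22 (0.012).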

How the data were processed

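The authors deposited 1 table of estimated counts per gene for 12 libraries (56980 genes), with 10.0 to 15.1% of values not whole, and these were rounded to whole numbers. The authors' mean columns in the table were not used for tests. Per the submitters' processing notes, which give no roles, the tools include Trimmomatic 0.39, the aligners HISAT2 and STAR 2.7.9a, the counters HTSeq and featureCounts 2.0.1, and also DESeq2 1.34.0, and the builds GRCm39 and mm10. Estimated counts can split reads between near-identical genes, so histone, haemoglobin and immunoglobulin genes are less certain.

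Genes were filtered by edgeR 4.0.16 (R 4.3.3), scaled by TMM (factors 0.948 to 1.06) and fitted by quasi-likelihood with treatment group and a low-Cdkn1a term, with Benjamini-Hochberg adjustment over all 18713 genes and a threshold of 0.05. Levels are CPM with these factors. The 3 libraries, the 39 gene lists and the tests were chosen with earlier results of these data known. Genes named are all clock and CDK inhibitor list members, the 3 farthest members of each other list with a mean of at least 1 CPM, and the 10 highest and 10 lowest genes in which the low library was extreme in all 3 groups. A few of these genes are not reported here. Of the listed symbols, 437 of 442 were in the table and 421 were tested. Alternatives were DESeq2 1.42.0, limma 3.58.1 (voom), other scaling and filters, other thresholds, a replicate block and each library left out. A correction for GC content and gene length was added after seeing the data. The fit was tested on simulated data. Replicate libraries differed by more than sampling noise (chi-square per degree of freedom of 17.8 to 154), so none was counted as a duplicate.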

Additional observations from a re-analysis of the deposited data

Results flagged for a closer look

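Each library below lay farther from its nearest neighbour, as a share of the whole range of its set, than the 95% critical value of Dixon for that number of libraries. Of 303 sets looked at, 40 did so. A chance rate of about 1 in 20 holds only for separate sets of normally distributed values. Gene levels were taken here in CPM without logs, and all 25 single genes listed were listed for a highest value. The sets also share genes and libraries, and some hold the libraries chosen by the rule. The 40 therefore cannot be set against that rate, and no excess is read from them. The share is given after each name, and no cause was tested.

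Control 2 was the highest of the 9 other libraries for the score of immediate early genes (0.618), Nfil3 (0.67), Cebpd (0.494), Egr1 (0.801), Fosb (0.805), Fos (0.733) and Celf5 (0.539). Model 4 was the highest of the 9 other libraries for Nr1d1 (0.521). Model 1 was the highest of the 9 other libraries for Bhlhe41 (0.589), Fasn (0.495), Cxcl12 (0.577) and Lum (0.589). HBG 1 was the highest of the 9 other libraries for Plin5 (0.727), Ccnd2 (0.59), Bank1 (0.522), Ighg1 (0.937), Ighg2c (0.669), Cidec (0.5) and Plin1 (0.562). Model 3 was the highest of the 9 other libraries for Ccnd3 (0.514). HBG 2 was the highest of the 9 other libraries for Ccl5 (0.498). Control 1 was the highest of the 9 other libraries for Slc4a1 (0.733), Alas2 (0.572), Hba-a2 (0.637), Alb (0.772) and Fgb (0.514).

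Among the 4 Control libraries, number 1 had the highest mean log2 level of clock, regulators of protein stability (0.876). Among the 4 Control libraries, number 3 had the lowest mean log2 level of cholesterol and fatty acid synthesis (0.916) and neutrophils (0.865). Among the 4 Control libraries, number 4 had the lowest mean log2 level of p53 targets (0.87). Among the 4 HBG libraries, number 3 had the lowest mean log2 level of p53 targets (0.858). Among the 4 Model libraries, number 2 had the highest mean log2 level of G1/S and replication (0.858), B cells (0.832) and immature thymocytes (0.837). Among the 4 Control libraries, number 2 had the lowest mean log2 level of NK cells (0.878). Among the 4 HBG libraries, number 3 had the highest mean log2 level of immature thymocytes (0.836), erythrocytes (0.935) and mast cells and basophils (0.879). Among the 4 Control libraries, number 1 had the lowest mean log2 level of smooth muscle (0.835). Among the 4 Model libraries, number 4 had the highest mean log2 level of smooth muscle (0.935). Control 4, Model 2 and HBG 3 are the libraries chosen by the rule.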

How the results depend on the processing

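Thresholds of 200 and 300 CPM chose the same 3 libraries. Of 2999 values of the 150 named genes under alternatives, 58 moved by more than their spread. Only genes called in the main edgeR fit were checked for a reversed sign, and none reversed. Many of them were named for large differences, so reversals were unlikely beforehand and nothing is read from this. Some list medians changed sign without HBG 3: club cell genes from -0.31 to 0.26 and alveolar macrophage genes from 0.67 to -0.06. With a log2 difference of at least 1 required, 656 genes were higher and 208 lower in the 3 libraries, and 66 (Model against Control) and 34 (HBG against Control) were called. Those 2 comparisons gave 856 and 526 calls in DESeq2 (15 for HBG against Model), 912 and 141 in limma-voom, 62 and 27 with group alone, and 46 and 22 with the 3 libraries left out. HBG against Control gave 41 calls after the GC and length correction. Leaving out each library in turn gave 358 to 2389 genes higher, 147 to 1924 lower, 45 to 257 calls for Model against Control, 44 to 76 for HBG against Control and 0 for HBG against Model. The fewest for Model against Control came without Model 2, and the most without Model 4. The cause was not tested. Replicate numbers do not pair the libraries: deviations of same-numbered libraries correlated from -0.42 to 0.60, and 3 libraries correlated best with their own number. With the replicate block, 763 genes were lower and 253 were called for Model against Control. Depth limits genes under 0.11 to 0.167 CPM, the level of 3 counts, a floor that covers counting error only.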
